A study of Mus musculus with 5 samples.

Results

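The genes described here lie on mouse chromosome 6 around ROSA26, the locus that carried the Cre transgene in 1 of the study's groups. They are all genes of the deposited tables whose leftmost base on GRCm38 lies between 108.0 and 118.5 Mb, by position alone and not by any measured value. There are 213 of them among 51912 genes listed, and 90 of the 213 are protein coding. Dorsolateral prostates of 3-month-old male mice were sequenced as total RNA. The 3 control mice were Ghrflox/flox, that is, loxP sites flanked part of Ghr, the growth hormone receptor gene, on both copies, and they had no Cre. The 2 mice labelled Ghr deletion were Ghrflox/flox;ROSA26Cre-ERT2+/0: they carried the same floxed alleles and 1 copy of a Cre recombinase that tamoxifen activates. Tamoxifen was given to all 5 mice, 250 mg/kg on each of 5 days, and the prostates were collected 1 month later. There is no group with Cre and unfloxed Ghr, so an effect of the Cre allele, of the chromosome segment inherited with it and of the loss of Ghr cannot be told apart.

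ROSA26 is a site on chromosome 6 where inserted genes are expressed in nearly all cells, which is why it is widely used for transgenes. Its promoter makes a noncoding RNA, Gt(ROSA)26Sor, and transgenes are usually placed in the first intron of that gene. A targeted allele is inherited together with the chromosome segment around it, which can come from another mouse strain than the rest of the genome. The labels do not give the insertion point of the Cre, the strain of the cells in which the locus was targeted, or the number of backcrosses, and the Cre sequence itself was not analysed here.

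The libraries held 19517831 to 41553558 expected counts, of which the window took 0.153% to 0.37%. Ghr (GRCm38 chromosome 15, 3317760 to 3583492), counted over the whole gene, had 10.1, 11.8 and 13.2 CPM in the controls, where CPM is a gene's count scaled to a fixed library total, and 21.5 and 10.2 CPM in the libraries labelled as deletion. A deleted part need not lower a count over the whole gene. Ghr was not lower in both, and these libraries are called deletion-labelled throughout. Marker genes of several tissues varied between libraries. Krt8, an epithelial keratin, was at 109 to 190 CPM in all 5 libraries. Pbsn, the prostate secretory protein probasin, had 11.1, 475 and 0.816 CPM in control replicates 1 to 3 and 0.0454 and 8.76 CPM in the deletion-labelled libraries. Hoxb13, a transcription factor of the prostate, was at 0 in control replicate 3 and in Ghr deletion replicate 1. The summed level of 8 seminal vesicle genes ran from 234412 to 451761 CPM in the controls and from 104999 to 183272 CPM in the deletion-labelled libraries. Of the 8, 6 were lower in both of these than in each control, against 12.5% of all genes tested. The controls differed widely here. Svs1 had 32915, 22520 and 58.6 CPM in control replicates 1 to 3, then 0.0454 and 7.90 CPM. Svs3a, Svs3b, Svs4 and Svs6 were also far lower in control replicate 3 than in control replicates 1 and 2. Svs2 and Pate4 were highest in control replicate 3. The summed level of 5 nerve genes was 96.1 CPM in control replicate 2 and 5.37 to 16.2 CPM elsewhere. The part of these differences in the results below was not tested. A value given without a library shows only how far a result rests on that library.

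Of the 213 genes, 106 had enough counts to be tested. Of the other 107, 69 had 0 counts in every library, and the highest level among the 107 was 0.514 CPM. The genes not tested include 36 of the 40 processed pseudogenes, all 10 miRNA genes and all 5 olfactory receptor genes, which encode odour receptors of the nose and had 0 counts throughout. At an adjusted p of 0.05 (edgeR, quasi-likelihood), 0 genes of the window were higher and 0 lower, and the background over all 18590 genes tested was also 0%. At an unadjusted edgeR p under 0.05, 4 genes of the window were on the higher side, where the background was 1.16%, and 2 on the lower side, where it was 3.1%. Together they were 5.66% of the 106, against 4.26% of all genes tested. Of the 4, Cidec, Gm7292 and Gm44199 were low in every control and passed the filter on low counts through the deletion-labelled libraries alone. The filter thus largely set their side. DESeq2 called 1 gene of the window higher, Gm7292, against a background of 0.108% higher and 0.436% in either direction, and 6 had an unadjusted p under 0.05, where the background was 6.69%. Gm7292 was also the 1 gene called by edgeR with no filter on low counts, where 0.00679% of all genes were called, all higher, and without control replicate 3, where 0.082% were called higher, 0.18% lower and 0.262% in all. With the replicate number as a block, although the numbers are not taken as pairs, edgeR called 4 genes of the window higher and 1 lower, where 2.97% of all genes were called higher, 3.09% lower and 6.06% in all. On the TPM scale, which is per transcript length and not scaled by TMM, limma called 18 higher and 0 lower on log2(TPM + 1), where 12% of all genes were called higher, 0.323% lower and 12.3% in all. On log2(TPM + 0.1) it called 11 higher and 0 lower, where the background was 3.69%, 0.253% and 3.94%.

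Gm7292 showed by far the widest separation in the window. It is a long noncoding RNA gene of 1 exon on the plus strand (ENSMUSG00000104222, GRCm38 chromosome 6, 117716342 to 117718868), 4.65 Mb from the start of Gt(ROSA)26Sor. Distances from that start run between leftmost bases on the chromosome, and as Gt(ROSA)26Sor is on the minus strand its leftmost base, 113067428, is its 3′ end. Its expected counts were 2.43, 7.66 and 2.41 in the controls, against 766.6 and 638.9 in the deletion-labelled libraries, or 0.123, 0.411 and 0.0441 CPM against 17.4 and 16.1 CPM. Every control was below 8 counts, while both deletion-labelled libraries lay far above that and close to each other. The means were 0.193 ± 0.193 CPM (SD, n = 3) and 16.8 ± 0.902 CPM (SD, n = 2). With counts summed over each group, the rate was 113-fold higher in the deletion-labelled libraries, with an exact 95% interval of 64.7 to 220 that covers counting error only. On the log2 scale the fitted difference, deletion-labelled minus control, was 6.58 (SE 0.76). Its unadjusted p of 0.00015 was the second smallest of all genes tested by edgeR, and the adjusted p was 0.874. With DESeq2 the adjusted p was 3.4e-15, and with edgeR it was 0.038 when no filter on low counts was used and 0.047 without control replicate 3. Over all alternatives its adjusted p ran from 1.4e-15 to 1. Across all genes tested, 8 had both deletion-labelled libraries at 1 CPM or more and at least 8 times every control (0.043%). Gm7292 was the 1 such gene in the window, and the rest of chromosome 6 held 1 more. By the mirrored rule 4 genes were lower, 0 of them in the window. Neither rule was among the planned comparisons. Gm7292 passed the filter on low counts through the deletion-labelled libraries alone, so it could hardly have been lower.

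Gm7292 is almost a copy of another transcript, and this bears on how its reads were counted. Its 2527 bases align to the long noncoding RNA 2900097C17Rik (ENSMUSG00000102869, chromosome 2, 156388065 to 156392979, minus strand) at 99.2% identity over 2537 aligned positions, with 9 substitutions and 12 gap bases. The longest stretch in which the sequences are identical is 651 bases, so fragments that lie within such a stretch are the same for both genes. The following 120-base stretch, the one without gaps that holds the most differences, is shown because reads over it can be assigned to 1 of the genes. Capitals mark the bases that differ, C1470T and G1481A, with Gm7292's base first and positions counted from 1 at the 5′ end of the Gm7292 transcript. Both are read 5′ to 3′ on the strand of the gene from GENCODE M21 on GRCm38, Gm7292 at chr6:117717764-117717883 and 2900097C17Rik at chr2:156391411-156391530.
Gm7292: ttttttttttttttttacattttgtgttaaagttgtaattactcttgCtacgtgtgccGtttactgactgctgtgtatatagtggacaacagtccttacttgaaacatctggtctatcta
2900097C17Rik: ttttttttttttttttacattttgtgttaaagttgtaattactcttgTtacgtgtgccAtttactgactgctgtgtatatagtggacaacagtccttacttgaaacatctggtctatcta

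The copy on chromosome 2 was abundant and even. 2900097C17Rik had 380, 250 and 359 CPM in the controls, against 343 and 333 CPM in the deletion-labelled libraries, with a log2 fold change of 0.04 (SE 0.28) and an adjusted p of 0.979 by edgeR. Gm7292 received 0.0394%, 0.157% and 0.0148% of the counts of the pair in the controls and 4.83% and 4.62% in the deletion-labelled libraries. When the counts of both genes were summed, which was added after seeing the data, the log2 ratio of the group means was 0.11. The expected counts come from a model that shares out reads between such copies, so the level of Gm7292 is uncertain, and which of the differing bases the reads carry was not analysed here. Gm7292 lies within the span of 1700030F04Rik, a noncoding gene on the minus strand that had 0 counts in every library. The nearest tested gene on each side overlapped between groups. Zfp637, a zinc finger gene 4.77 Mb from the start of Gt(ROSA)26Sor, had 13.0, 9.30 and 14 CPM in the controls, against 12.4 and 12.7 CPM in the deletion-labelled libraries. Cxcl12, a chemokine of stromal cells, lies 4.10 Mb from that start and had 139, 60.8, 71.5, 79.5 and 68.0 CPM in the same order. Zfp637, Cxcl12, Gm7292 and its copy were chosen for description after their values were seen.

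**Figure D1:**
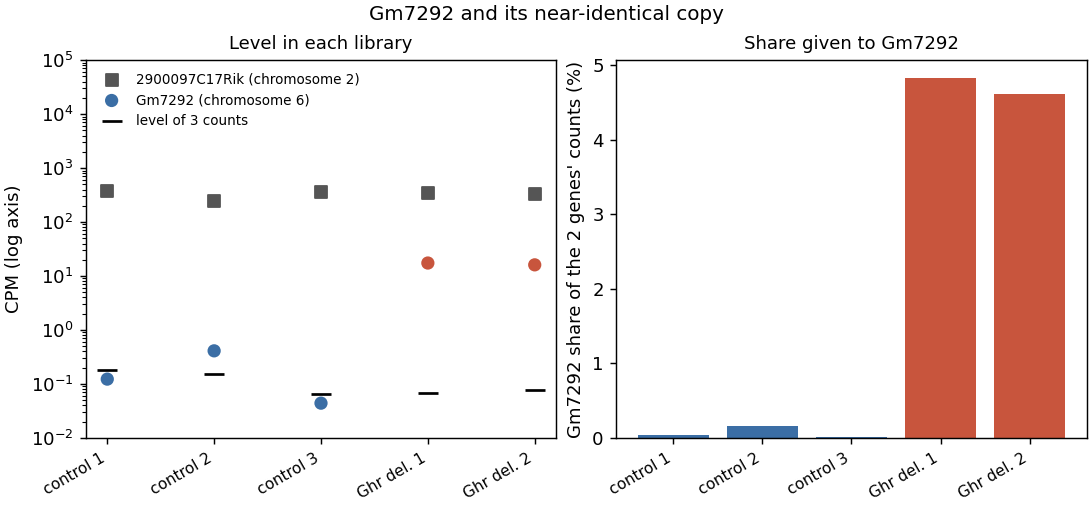
Level and share of Gm7292 in each of the 5 libraries. The left panel plots CPM on a log axis for Gm7292 (circles), for 2900097C17Rik (squares) and for 3 counts (dashes), and the right panel plots the percent of the pair's counts given to Gm7292. The deletion-labelled libraries sit at 17.4 and 16.1 CPM and the controls at 0.0441 to 0.411 CPM, while 2900097C17Rik stays between 250 and 380 CPM.

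At ROSA26 itself the groups overlapped. Gt(ROSA)26Sor (ENSMUSG00000086429, minus strand, 113067428 to 113077333) was expressed at 6.97, 6.01 and 10.4 CPM in the controls, against 12.9 and 9.67 CPM in the deletion-labelled libraries. The lower of the deletion-labelled libraries lay below control replicate 3. The means were 7.81 ± 2.32 CPM (SD, n = 3) and 11.3 ± 2.28 CPM (SD, n = 2), and the log2 fold change was 0.53 (SE 0.32). The 95% interval ran from -0.26 to 1.31, and edgeR gave an adjusted p of 0.874. Without Ghr deletion replicate 1 the value was 0.30. The interval is unadjusted and rests on 3 and 2 libraries whose tissue markers differed. An effect of the Cre allele on this level was not tested. The counts are summed over all transcripts of the gene, so the Cre-carrying allele and the other allele cannot be told apart. The first exon of its longest annotated transcript is shown because the intron that follows it is the usual place of insertion. It lies at chr6:113077068-113077210 on GRCm38, minus strand, and the intron after it spans 5632 bases.
Gt(ROSA)26Sor exon 1: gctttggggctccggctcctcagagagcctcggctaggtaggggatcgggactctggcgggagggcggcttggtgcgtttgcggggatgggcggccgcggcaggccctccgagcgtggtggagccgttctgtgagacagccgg

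The genes on either side of Gt(ROSA)26Sor also overlapped between groups. Setd5, a chromatin regulator related to histone methyltransferases, runs the other way, with 31 bases between its 5′ end and the 5′ end of Gt(ROSA)26Sor at 113077333 (plus strand, 113077365 to 113153435). It had 152, 196 and 138 CPM in the controls, against 163 and 142 CPM in the deletion-labelled libraries, so both of these lay within the control range. Its log2 fold change was -0.09 (SE 0.24), the 95% interval ran from -0.68 to 0.50, and edgeR gave an adjusted p of 0.942. Thumpd3, a tRNA methyltransferase gene (plus strand, 113046225 to 113068273), had 30.2, 18.9 and 23.6 CPM in the controls, then 24.6 and 24.7 CPM, also within the control range. Its log2 fold change was 0.03 (SE 0.25), the 95% interval ran from -0.58 to 0.64, and edgeR gave an adjusted p of 0.982. Thumpd3 and Gt(ROSA)26Sor overlap by 846 bases on opposite strands, and the strand setting of the counting is not given in the sources used here, so reads in that overlap are uncertain. With 1 library left out the value ran from -0.12, without control replicate 2, to 0.21, without control replicate 1, for Thumpd3, and from -0.20, without control replicate 3, to 0.07, without control replicate 2, for Setd5.

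The deposited tables also give the mean transcript length of each gene, weighted by the abundance of its isoforms in that library. For Gt(ROSA)26Sor it was 1050, 1072 and 1104 bases in the controls, against 1026 and 1126 bases in the deletion-labelled libraries. The controls lay between the deletion-labelled libraries, so the groups overlapped. Setd5 had 4196, 4219 and 4163 bases in the controls, then 4189 and 4248 bases, and Thumpd3 had 1686, 1775 and 1656 bases and then 1741 and 1893 bases. The groups overlapped for both. On a scale per transcript length, mean TPM over the 5 libraries was 7.69 for Gt(ROSA)26Sor, 10.1 for Thumpd3 and 24.1 for Setd5.

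Within 0.25 Mb of the start of Gt(ROSA)26Sor, 6 further genes were tested. Mtmr14, a lipid phosphatase gene, was at 6.48 to 11.5 CPM in the controls, against 10.4 and 10.3 CPM in the deletion-labelled libraries, within the control range. Lhfpl4, a membrane protein of inhibitory synapses, was low, at 0.432, 1.70 and 0.198 CPM in the controls, then 0.136 and 0.555 CPM, and its highest value was in control replicate 2. Cpne9, a copine of the brain, and Gm43935, a gene annotated from a transcript with little other evidence, were below 0.5 CPM in every library. Brpf1, a scaffold of histone acetyltransferase complexes, had 32.6, 48.1 and 32.8 CPM in the controls, against 27.2 and 30.4 CPM in the deletion-labelled libraries. Gm43868, a thinly supported annotation beside Thumpd3, had 0.926, 0.565 and 0.331 CPM and then 0.25 and 0.177 CPM. Counted from the 5′ end of Gt(ROSA)26Sor, Ogg1 (113326972 to 113335068), a glycosylase that removes oxidised guanine from DNA, would also lie within 0.25 Mb. It had 6.11, 7.65 and 6.29 CPM in the controls, then 7.53 and 5.83 CPM, and the groups overlapped. Both Brpf1 and Gm43868 were lower in both deletion-labelled libraries than in each control, and neither passed the test (adjusted p = 0.874 by edgeR for both).

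**Figure D2:**
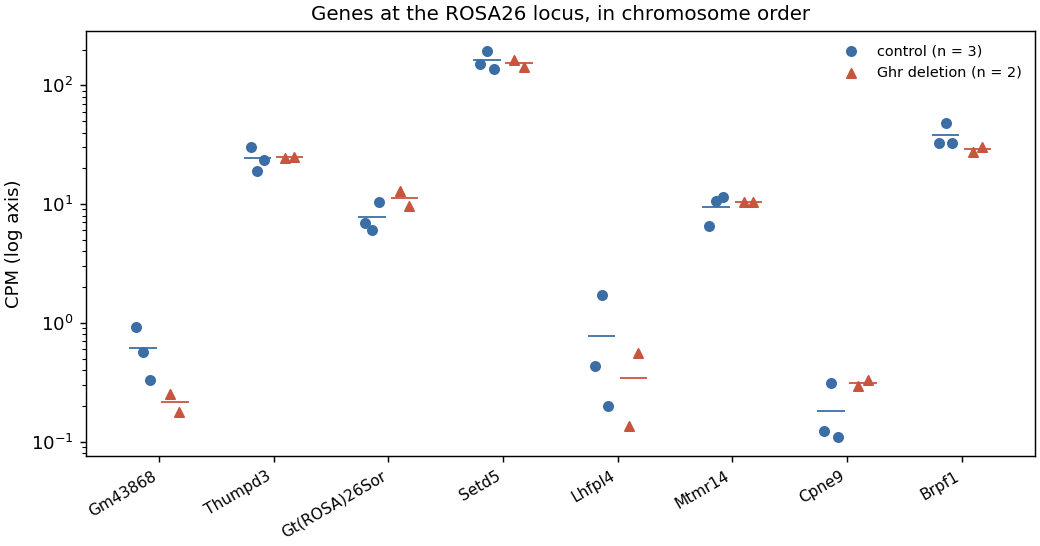
CPM on a log axis for 8 of the 9 tested genes within 0.25 Mb of the start of Gt(ROSA)26Sor, in chromosome order, with circles for the 3 control libraries, triangles for the 2 deletion-labelled libraries and bars for the group means. Gm43935, at 0 in control replicate 2, is not drawn. Thumpd3 and Setd5 overlap between groups, and Brpf1 and Gm43868 do not.

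Across the window, 15 of the 106 tested genes were higher in both deletion-labelled libraries than in each control (14.2%, against a background of 10.8%) and 12 were lower in both (11.3%, against 12.5%). The other 79 overlapped between groups. The median log2 fold change was 0.039 over the 106 genes and -0.006 over all genes tested, and over the 938 tested genes of the rest of chromosome 6 it was 0.05, with 13.3% higher and 10.1% lower. A change within 0.5 log2 units of 0 was seen for 67 of the 106 genes, or 63.2%, against a background of 69.2%. These shares are near the background, which passed the same filter on low counts. A gene low in every control can enter the test through the deletion-labelled libraries alone, and can then hardly be lower. Cidec, Gm7292, Gm44199, Cpne9 and the pseudogene Gm18325, at 9 counts or fewer in every control, entered in this way. The filter thus largely set the side on which these genes lie. The reverse also occurs. Ssu2 entered through control replicates 1 and 2 alone, and Gm43868 fell below the filter in Ghr deletion replicate 2 and needed the controls to enter. For Ssu2 and Gm43868 the filter favoured the lower side. The shares also depend on the scaling. Scaled by library size only, 60 were higher and 2 lower, against 46.8% and 1.61% of all genes, and in TPM 86 were higher and 0 lower, against 78.5% and 0.307%. With effective lengths as offsets 17 were higher and 6 lower, against 10.8% and 11.6%. With 1 library left out the groups separate more often by construction, and the counts were then 20 to 28 higher, the most without control replicate 3, against 17.1% to 23.8% of all genes, and 17 to 24 lower, the most without Ghr deletion replicate 2, against 17.9% to 23.3%. With control replicates 1 and 2 left out together, which leaves 1 control library, they were 39 and 40 of 110, against 32.7% and 31.9%.

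By distance from the start of Gt(ROSA)26Sor the counts are set beside 10.8% higher and 12.5% lower over all genes. Of 27 genes within 0.5 Mb, 1 was higher (3.7%) and 7 were lower (25.9%), with a median log2 fold change of -0.087. Of 30 genes at over 0.5 to 2.5 Mb, 5 were higher (16.7%) and 3 lower (10%), with a median of -0.009. Of 49 genes farther away, 9 were higher (18.4%) and 2 lower (4.08%), with a median of 0.12. The 7 lower genes near the locus were Gm43868, Brpf1, Tada3, Ttll3, Rpusd3, Il17rc and Creld1, and all except Gm43868 lie between 113307137 and 113493343. Scaled by DESeq2 size factors or by upper-quartile factors all 7 remained lower, where 12.7% and 10.7% of all genes were lower. With effective lengths as offsets 3 of the 7 remained lower, where 11.6% of all genes were. With library size only it was 2, where 1.61% of all genes were lower, and in TPM 0, where 0.307% were. Differences between the distance classes were not tested.

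**Figure D3:**
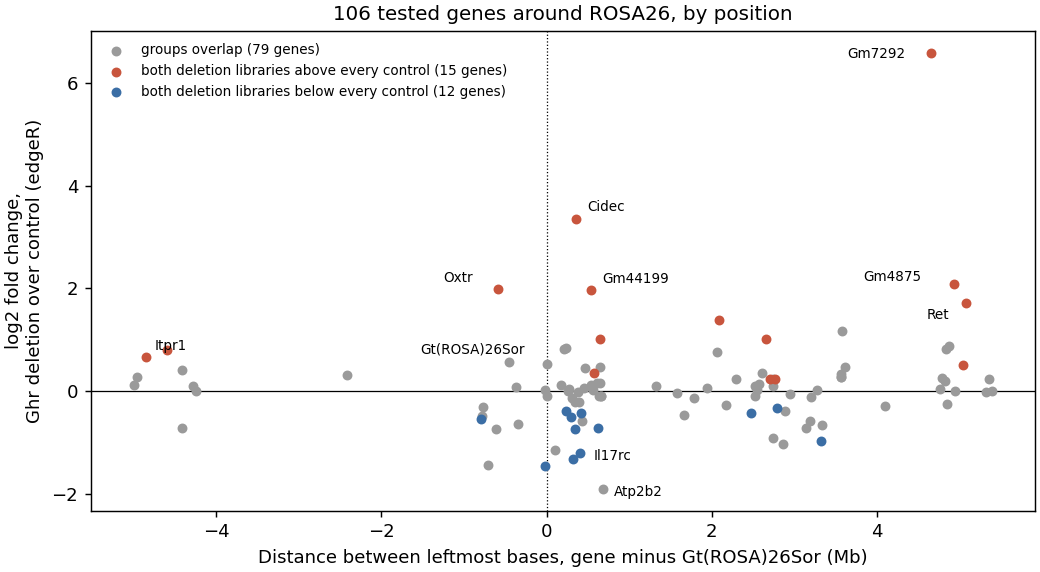
Log2 fold change of the deletion-labelled libraries over control for each of the 106 tested genes, against the distance of its leftmost base from that of Gt(ROSA)26Sor in Mb. Colours give whether the groups overlap; Gm7292 stands at 6.58 and the other genes lie between -1.90 and 3.36.

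Among the genes on the higher side, the ones with the smallest p were Cidec, Oxtr, Ghrl, Tmem40, Itpr1, Depp1, Ret and Csgalnact2, and none passed the test (adjusted p = 0.874 by edgeR for each). Ret, the receptor tyrosine kinase for the GDNF family of growth factors, had 2.78, 35.6 and 9.88 CPM in the controls, against 55.7 and 50.2 CPM in the deletion-labelled libraries. Control replicate 2 was the nearest to them and control replicate 1 the farthest. The means were 16.1 ± 17.3 CPM (SD, n = 3) and 53.0 ± 3.91 CPM (SD, n = 2), a log2 fold change of 1.72 (SE 0.91). With 1 library left out it ran from 1.22, without control replicate 1, to 3.03, without control replicate 2. Itpr1, the calcium release channel opened by inositol trisphosphate, had 146, 215 and 284 CPM in the controls, then 342 and 336 CPM, a log2 fold change of 0.66 (SE 0.32). Its controls spread over a wider range than the gap to the deletion-labelled libraries.

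Oxtr, the oxytocin receptor, had 0.37, 0.514 and 0.926 CPM in the controls, against 3.86 and 1.06 CPM in the deletion-labelled libraries (log2 fold change 1.98, SE 0.70). Ghr deletion replicate 1 stood well above the rest, and Ghr deletion replicate 2 was close to control replicate 3. Without Ghr deletion replicate 1 the value was 0.78. Ghrl, which encodes ghrelin, the stomach hormone that releases growth hormone, had 0.309, 0.257 and 0.397 CPM and then 0.726 and 0.606 CPM (log2 fold change 1.02, SE 0.49), from 32 counts or fewer in each library. Tmem40, a membrane protein gene, had 2.16, 1.03, 2.62, 5.08 and 2.85 CPM in that order (1.02, SE 0.51). Csgalnact2, an enzyme of chondroitin sulphate synthesis, had 28.3, 17.7, 31.7, 41.7 and 32.6 CPM (0.52, SE 0.30). In Tmem40 and Csgalnact2, Ghr deletion replicate 2 lay just above control replicate 3. Without Ghr deletion replicate 1 the values were 0.55 for Tmem40 and 0.33 for Csgalnact2, and without control replicate 2 Csgalnact2 was at 0.31. Depp1, a stress-responsive gene of autophagy, had 0.556, 0.411, 0.441, 1.57 and 0.555 CPM (1.18, SE 0.59), and here Ghr deletion replicate 2 lay just below control replicate 1. Without Ghr deletion replicate 1 the value for Depp1 was 0.24.

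Cidec, a lipid droplet protein of fat cells, lies 0.36 Mb from the start of Gt(ROSA)26Sor and had 0, 0 and 9 counts in the controls, against 53 and 27 counts in the deletion-labelled libraries. In CPM this was 0, 0 and 0.198 against 1.20 and 0.681, with a fitted log2 fold change of 3.36 (SE 1.13). Control replicate 3 was the 1 control with counts, and without it the fitted value was 7.82. Both remaining controls were then at 0, so the size of that value is not fixed by the counts. With 1 of the other libraries left out it ran from 2.86, without control replicate 2, to 3.77, without Ghr deletion replicate 2. Of 8 fat cell genes outside the window, 5 were higher in both deletion-labelled libraries than in each control and 0 were lower. Retn, Cidea and Lipe overlapped between groups. Of all genes tested 10.8% were higher and 12.5% lower, but the 8 were counted without the filter on low counts. Lep, at 0 in every control, could not have been lower. Adipoq and Plin1, at 0.154 CPM or less in every control, could hardly have been lower. Their summed level, which also overlapped, was 11.6, 21.3 and 17.8 CPM in the controls, against 23.9 and 14.2 CPM in the deletion-labelled libraries, of which Lipe, a lipase that other tissues also express, held 9.26, 19.9 and 15.1 CPM and then 9.10 and 9.51 CPM. Adipoq, the fat cell hormone adiponectin, had 0, 0.103, 0.11, 1.23 and 0.328 CPM, and Lep, which encodes leptin, was at 0 in every control. The part of fat tissue in the level of Cidec was not tested, and fewer cells of a type cannot be told apart from less RNA per cell in whole tissue. Pparg, the nuclear receptor that drives fat cell formation, lies 2.29 Mb from the start of Gt(ROSA)26Sor and had 0.864, 0.719 and 0.265 CPM in the controls, then 1.09 and 0.328 CPM, so the groups overlapped.

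Among the genes on the lower side, again with predicted genes and pseudogenes left out, those with the smallest p included Lmcd1, Il17rc, Ttll3, Tada3, Ssu2, Rpusd3 and Creld1. None passed the test (adjusted p = 0.874 by edgeR for each). Lmcd1, a LIM domain cofactor of muscle and other tissues, had 40.9, 40.5 and 35.4 CPM in the controls, against 23.5 and 30.4 CPM in the deletion-labelled libraries (log2 fold change -0.53, SE 0.21). Il17rc, a subunit of the interleukin-17 receptor, had 6.23, 10.9 and 4.12 CPM and then 2.90 and 3.26 CPM (-1.20, SE 0.47). For Il17rc, control replicate 3 lay nearer to the deletion-labelled libraries than to either other control, and without control replicate 2 the value was -0.74. Ttll3, a tubulin glycylase, had 3.15, 8.84 and 3.33 CPM and then 1.82 and 2.30 CPM (-1.31, SE 0.57), with its highest value in control replicate 2. Without that library the value for Ttll3 was -0.66. Ttll3 overlaps its neighbour Arpc4 on the same strand by 1189 bases.

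Tada3, a subunit of histone acetyltransferase complexes, had 9.75, 14.5 and 11.8 CPM in the controls, then 8.60 and 8.45 CPM (log2 fold change -0.50, SE 0.25). Rpusd3, a mitochondrial pseudouridine synthase, had 0.988, 1.44 and 1.15 CPM and then 0.749 and 0.681 CPM (-0.73, SE 0.43). Creld1, a membrane protein linked to heart development, had 7.10, 8.43 and 8.47 CPM and then 5.15 and 6.76 CPM (-0.43, SE 0.26). In each of these 3 genes the groups were separate, by a gap smaller than the range of the controls. Without Ghr deletion replicate 1 the value for Creld1 was -0.25. Ssu2 was below 0.6 CPM throughout and its groups met (-1.43, SE 0.79). It passed the filter on low counts through control replicates 1 and 2 alone, which favoured the lower side. With Ghr deletion replicate 1 or 2 left out its value was -2.31 or -0.92. On the TPM scale, where the median of all genes was 0.87, each of these 7 genes had a positive log2 fold change.

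**Figure D4:**
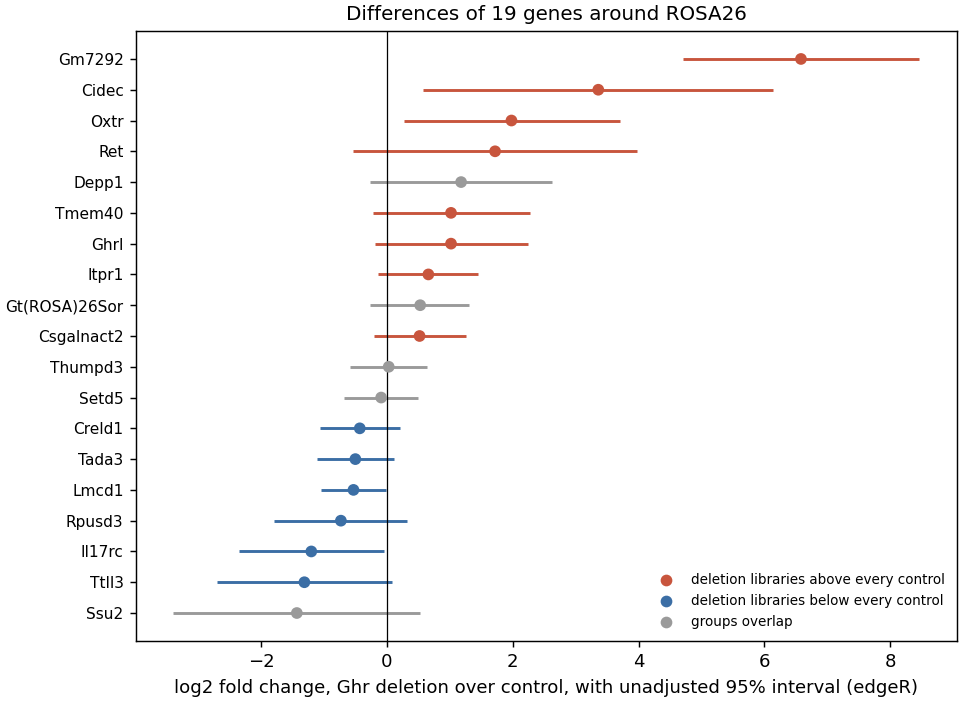
Log2 fold change with its unadjusted 95% interval for Gt(ROSA)26Sor, Thumpd3, Setd5, Gm7292 and 15 of the genes with the smallest p (predicted genes and pseudogenes left out), 8 higher and 7 lower, coloured by whether the groups overlap. The interval of Gm7292 runs from 4.71 to 8.46, and those of Gt(ROSA)26Sor, Thumpd3 and Setd5 include 0.

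In the lists by role, 0 members passed by edgeR in either direction, so higher and lower mean here only that both deletion-labelled libraries lay above or below each control, as for 10.8% and 12.5% of all genes. These lists hold 2 to 12 tested genes each, so 1 gene is a large share of a list. All 5 DNA repair genes were tested, and 1 was higher in both deletion-labelled libraries than in each control. This was Mbd4, a DNA glycosylase, with 5.86, 7.30 and 7.17 CPM in the controls, then 8.44 and 7.57 CPM. Rad18, a ubiquitin ligase of DNA damage tolerance, was at 2.62 to 4.14 CPM in the controls, then at 6.72 and 3.46 CPM, and Fancd2, a protein of the Fanconi anaemia pathway, had 2.78, 1.18 and 3.55 CPM and then 3.61 and 3.28 CPM. Of 8 tested chromatin and transcription genes, 0 were higher and 2 lower, Brpf1 and Tada3. Bhlhe40, a repressor linked to the clock, had 11.7, 6.88 and 21.1 CPM in the controls, then 16.8 and 18.9 CPM, and Zfp248, a zinc finger gene, had 7.28, 4.73, 5.51, 6.31 and 7.42 CPM. The groups overlapped for both.

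Of 6 tested RNA and translation genes, 0 were higher and 2 lower, Rpusd3 among them. Rpl32, a protein of the large ribosomal subunit and the most abundant gene of the window per length, had 351, 194 and 344 CPM in the controls, then 344 and 295 CPM, with a mean TPM of 666. Snora7a, a small nucleolar RNA inside Rpl32, had a mean TPM of 132 from 0.309 to 0.545 CPM, and its sequence lies wholly within an annotated Rpl32 transcript, so its counts are uncertain. Hnrnpf, an RNA-binding splicing factor, was at 140 to 299 CPM in the controls, then at 246 and 272 CPM. Parts of its sequence match 9 other genes closely, the longest match being 1248 bases of Gm6430 at 99.3%. Parts of Rpl32 match 4 other genes, so the counts of Hnrnpf and Rpl32 may include shared reads. Of 4 ubiquitin and degradation genes, 0 were higher and 0 lower, and their log2 fold changes ran from -0.03 to 0.11. Vhl, the ubiquitin ligase subunit that marks hypoxia-inducible factors, had 24.5, 16.5 and 22.1 CPM and then 21.0 and 21.6 CPM, and Atg7, an autophagy enzyme, had 17, 19.5, 15.4, 16.3 and 17.5 CPM.

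Of 12 genes of the secretory pathway, membranes and cytoskeleton, 1 was higher, Itpr1, and 2 lower, Ttll3 and Creld1. Brk1, a subunit of the actin regulator WAVE, had 51.5, 32.9 and 50.9 CPM in the controls, then 50.6 and 47.9 CPM. Of 12 tested receptors, ligands and kinases, 4 were higher and 1 lower. The 4 were Ret, Oxtr, Ghrl and Irak2, an interleukin-1 receptor kinase with 15.6, 20.9 and 23.8 CPM in the controls, then 25.8 and 25.4 CPM, and the lower gene was Il17rc. Irak2 was named after its values were seen. Of the 4 fat cell and lipid genes, 1 was higher, Cidec, and 0 lower. Timp4, a metalloproteinase inhibitor, was lowest in control replicate 1, at 0.37 CPM against 1.18 to 2.67 CPM elsewhere, and Alox5, the leukocyte enzyme that starts leukotriene synthesis, was highest in control replicate 2, at 5.34 CPM against 0.908 to 2.2 CPM elsewhere.

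Of 6 tested neural and transporter genes, 0 were higher and 0 lower. Atp2b2, a calcium pump of neurons, had 8.68 CPM in control replicate 2 and 0.227 to 1.46 CPM in the other libraries, and Srgap3, a regulator of neuronal branching, had 49.7, 76.4 and 28.1 CPM in the controls, then 35.3 and 30.6 CPM. Both were highest in control replicate 2, the library with the highest summed nerve genes, and the part of nerve in these values was not tested. Of the 2 muscle genes, Cav3, the muscle caveolin, was at 0.103 to 0.86 CPM in all libraries and Lmcd1 was lower. Skeletal muscle genes summed to 89.7 to 328 CPM in the controls and to 103 and 143 CPM in the deletion-labelled libraries.

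Some genes of the window differed widely among the controls. Gm4875, a processed pseudogene 4.93 Mb from the start of Gt(ROSA)26Sor that matches Lasp1 at 95.7%, had 0, 0 and 53 counts in the controls, against 61 and 93 counts in the deletion-labelled libraries. Control replicate 3 thus sat with the deletion-labelled libraries and apart from the other controls. The fitted log2 fold change was 2.08 with it and 8.80 without it, where both remaining controls were at 0 and the counts do not fix its size. With 1 of the other libraries left out it ran from 1.51, without control replicate 2, to 2.44, without Ghr deletion replicate 1. Syn2, a synaptic vesicle protein gene, had 0.247 CPM in control replicate 1 and 9.97 to 14.3 CPM in the other 4 libraries. Its log2 fold change was 0.76, and with 1 library left out it ran from 0.20, without control replicate 1, to 1.22, without control replicate 2. Fxyd4, a regulator of the sodium pump, had 4.69, 1.13 and 13.1 CPM in the controls, then 8.80 and 14.7 CPM, again with control replicate 3 among the deletion-labelled libraries. Its log2 fold change was 0.88, and with 1 library left out it ran from 0.39, without control replicate 2, to 2.02, without control replicate 3. Gm44199, a noncoding gene antisense to Brk1, had 0.0617, 0.0514 and 0.198 CPM in the controls, then 0.386 and 0.555 CPM. Its log2 fold change of 1.97 (SE 0.73) did not pass the test (adjusted p = 0.874 by edgeR). With 1 library left out it ran from 1.64, without control replicate 2, to 2.96, without control replicate 3. These 4 genes were picked with their values already known.

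A further 3 genes on each side did not overlap between groups. They were also named with their values known, and none passed the test. Cand2, a muscle relative of a regulator of ubiquitin ligases, had 6.54, 9.71 and 9.90 CPM in the controls, then 10.4 and 10.3 CPM. Ift122, a subunit of the transport machinery of cilia, had 18.3, 22.6 and 17 CPM in the controls, then 14.6 and 16.4 CPM. The gap between groups was smaller than the range of the controls for both. Gm44101, which overlaps Itpr1 on the other strand, had 0.556, 1.70 and 1.65 CPM and then 2.22 and 2.40 CPM. The processed pseudogene Gm18325 was at 0 to 0.379 CPM, and Gm43912 and Gm44237, on the lower side, were at 0.151 to 0.616 CPM.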

How the data were processed

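Whole dorsolateral prostate was measured in 3 control and 2 Ghr deletion libraries, made with a stranded total RNA kit per the labels' protocols. RSEM 1.3.0, STAR 2.5.3a, bcl2fastq 2.20.422 and GRCm38 are listed, per the submitters' processing notes, with no annotation release or strand setting given in the sources used here. Per the file headers, the authors deposited RSEM expected counts, TPM and transcript lengths (another value per gene, in bases) for each library. Genes were placed with GENCODE M21, which holds 99.6% of the listed identifiers.

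Expected counts were rounded, filtered with filterByExpr, scaled by TMM and compared with edgeR 4.0.16 (quasi-likelihood, group as the only term, Benjamini-Hochberg over 18590 genes at 0.05) in R 4.3.3, with DESeq2 1.42.0 and limma 3.58.1 as alternatives. CPM uses TMM-scaled library sizes. The TMM factors were 0.8305, 0.6558 and 1.092 in control replicates 1 to 3 and 1.39 and 1.21 in the deletion-labelled libraries. The biological coefficient of variation was 42.7%. The labels call the samples biological replicates and do not say that equal replicate numbers share a litter or day. An exact test of 3 against 2 libraries cannot go below p = 0.2. The edgeR step was tested on simulated data. Transcripts were aligned with BLAST+ 2.17.0.

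Genes were named by rule: the locus genes, those within 0.25 Mb, the 8 smallest p in each direction (predicted genes left out), the 5 highest mean TPM, and up to 4 of each list by role; others are marked, and 1 gene is not reported here. Members and lists were chosen with earlier results of these data known. Of the listed genes by role, Hdac11, Trnt1, Crbn, Il5ra and Lrrn1 lie outside the window and were dropped. The luminal, basal, smooth muscle and myeloid marker lists had summed levels of 651 to 3591, 77.0 to 91.7, 2052 to 6857 and 38.9 to 74.9 CPM in the controls and 597 to 764, 70.0 to 71.2, 5722 to 6075 and 39.7 to 69.1 CPM in the deletion-labelled libraries.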

Additional observations from a re-analysis of the deposited data

How the results depend on the processing

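The count of genes of the window called higher was 1 with DESeq2, 1 with no filter on low counts, 4 with a replicate block, 18 on log2(TPM + 1) and 11 on log2(TPM + 0.1), and with 1 library left out it ran from 0 to 1. Where 1 gene was called it was Gm7292. The count called lower was 1 with the replicate block. The block added Cidec, Gm4875, Fxyd4 and Il17rc, at log2 fold changes of 7.92, 8.98, 2.2 and -1.43, in a fit that called 1126 of all genes. For Cidec and Gm4875, control replicates 1 and 2 were at 0 counts, so the counts do not fix the size of these values. Equal numbers correlated at 0.281 and 0.296 in their deviations from the group means, over 2 pairs, and crossed numbers at -0.281 and -0.296. With 2 deletion-labelled libraries these deviations mirror each other, so the correlations cannot decide on pairing. The numbers are not taken as pairs because the labels do not say that they mark a shared litter or day.

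Non-overlapping genes on the higher side were 60 with library size only and 86 on either TPM scale, 20 to 28 with 1 library left out and 39 with control replicates 1 and 2 left out together, an alternative added after seeing the data. On the lower side they were 2, 0 on both TPM scales, 6 with effective lengths as offsets, 17 to 24 with 1 library left out, and 40. Of all genes, library size only gave 46.8% higher and 1.61% lower, log2(TPM + 1) 78.5% and 0.307%, effective lengths 10.8% and 11.6%, 1 library left out 17.1% to 23.8% and 17.9% to 23.3%, and both controls left out 32.7% and 31.9%. The median moved to 0.61, 0.88 and 1.39 with library size only, log2(TPM + 1) and log2(TPM + 0.1), where the median of all genes was 0.58, 0.87 and 1.33.

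Thumpd3 turned to -0.07 with effective lengths as offsets. Setd5 turned to 0.56, 1.33 and 1.38 under library size only and the TPM scales and to 0.14 with control replicates 1 and 2 left out; with 1 library left out Setd5 ran from -0.20 to 0.07 and Thumpd3 from -0.12 to 0.21. Under library size only, log2(TPM + 1) and log2(TPM + 0.1), Creld1 was 0.15, 0.88 and 1.20, Lmcd1 0.07, 0.86 and 0.93 and Tada3 0.12, 0.75 and 0.98. On the TPM scales alone Il17rc was 0.42 and 0.56, Rpusd3 0.16 and 0.35, Ssu2 0.01 and 0.04, and Ttll3 0.28 and 0.48. Fxyd4 was -0.15 with control replicates 1 and 2 left out. Under library size only and the TPM scales most genes moved up, as the medians of all genes above show. Less that median, library size only gave -0.03 for Setd5, -0.43 for Creld1, -0.51 for Lmcd1 and -0.46 for Tada3. On log2(TPM + 1), less the median, Setd5 was at 0.46, Creld1 at 0.01, Lmcd1 at -0.01 and Tada3 at -0.11. Il17rc, Rpusd3, Ssu2 and Ttll3 lay below the median on both TPM scales. The cause of the turns was not tested. Overlap between groups was not recomputed for limma-voom and the block, which leave the levels as they are. At these depths 3 counts equal 0.0662 to 0.185 CPM.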
